A study of Mus musculus with 6 samples.

Results

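The 10 genes described here encode proinflammatory cytokines of the innate immune system and parts of the inflammasome, and were chosen by symbol: Tnf, Il1a, Il1b, Il1rn, Il18, Il12b, Nlrp3, Casp1, Casp4 and Pycard. All 10 were among the 32285 genes of the 4 single-cell libraries. Immune cells carrying CD45 were isolated from the ventral midbrain of male Line 61 mice, which express human α-Syn from the Thy1 promoter, mainly in neurons. The mice were 12 to 15 weeks old when PBS, monomeric human α-Syn or human α-Syn preformed fibrils (PFFs) were injected into both striata, and tissue was collected 6 weeks later. The labels gave 1 library for each of 4 groups, named PBS, monomer, PFF + VH and PFF + AZD1480. In PFF + VH the mice received vehicle (VH) by gavage for 4 weeks from week 2, and in PFF + AZD1480 they received the JAK1/2 inhibitor AZD1480 at 25 mg/kg on the same schedule. All groups, PBS and monomer included, carried the transgene, and 3 to 5 midbrains were pooled per sample.

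Tumour necrosis factor (TNF) and the interleukin-1 cytokines are among the first signals that microglia, the resident macrophages of the brain, release when they meet damage or aggregated protein. Transcription of Tnf, Il1a, Il1b and Nlrp3 is raised by NF-κB, a step known as priming. In a second step the sensor NLRP3 assembles with the adaptor ASC (the product of Pycard) and caspase-1 into the inflammasome, where caspase-1 cleaves the precursors of IL-1β and IL-18 into their active forms. Caspase-4 of the mouse, also called caspase-11, senses bacterial lipopolysaccharide inside the cell and cleaves gasdermin D. RNA counts bear on the first step only, since assembly and cleavage happen to protein.

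The genes lie apart in the genome, except for 2 pairs of neighbours. Tnf lies at chr17:35199381-35202007 on the minus strand of GRCm38. Il1a (chr2:129299610-129309972) and Il1b (chr2:129364570-129371139) lie near each other on the minus strand, with Il1rn on the same chromosome at chr2:24336853-24351494. Casp1 (chr9:5298517-5307265) and Casp4 (chr9:5308828-5336783) are adjacent on the plus strand, and Il18 is at chr9:50554827-50581840. Il12b is at chr11:44400063-44414033, Nlrp3 at chr11:59541568-59566956 and Pycard at chr7:127989708-127993867. All 10 are annotated as protein coding, and no annotated gene overlapped any of them on the same strand. On the opposite strand, Gm14023 overlapped Il1a, Il1bos overlapped Il1b, Bco2 and Tex12 overlapped Il18, and Gm45205 overlapped Pycard.

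The 250 bases before the transcription start, from RefSeq on GRCm38.p6, are shown for the primed cytokines Tnf, Il1a and Il1b, whose levels separated the cell classes, and for the sensor gene Nlrp3, which differed between the PFF groups below. All 10 symbols were matched in the promoter table. Both strands were searched for TATAAA, the core of a TATA box, for the NF-κB consensus and for TTCNNNGAA, the GAS element that STAT proteins bind. In the first 3 the capitals mark TATAAA and in Nlrp3 they mark a match to the NF-κB consensus. The windows are chr17:35202008-35202257 (minus strand) for Tnf, chr2:129309973-129310222 (minus) for Il1a, chr2:129371140-129371389 (minus) for Il1b and chr11:59541319-59541568 (plus) for the more upstream of 2 annotated starts of Nlrp3.
Tnf: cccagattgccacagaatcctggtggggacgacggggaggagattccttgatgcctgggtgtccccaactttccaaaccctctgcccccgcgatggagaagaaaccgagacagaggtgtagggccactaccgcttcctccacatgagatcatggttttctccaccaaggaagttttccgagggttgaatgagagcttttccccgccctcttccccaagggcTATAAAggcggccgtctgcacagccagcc
Il1a: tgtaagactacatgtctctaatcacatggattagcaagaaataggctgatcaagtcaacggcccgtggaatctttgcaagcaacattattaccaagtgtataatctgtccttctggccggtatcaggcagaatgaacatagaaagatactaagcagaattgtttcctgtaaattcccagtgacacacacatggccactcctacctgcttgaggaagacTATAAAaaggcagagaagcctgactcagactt
Il1b: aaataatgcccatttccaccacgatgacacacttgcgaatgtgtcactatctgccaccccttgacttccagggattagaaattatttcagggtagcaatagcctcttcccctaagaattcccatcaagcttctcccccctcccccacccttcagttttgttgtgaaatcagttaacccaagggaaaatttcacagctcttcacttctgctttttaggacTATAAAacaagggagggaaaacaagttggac
Nlrp3: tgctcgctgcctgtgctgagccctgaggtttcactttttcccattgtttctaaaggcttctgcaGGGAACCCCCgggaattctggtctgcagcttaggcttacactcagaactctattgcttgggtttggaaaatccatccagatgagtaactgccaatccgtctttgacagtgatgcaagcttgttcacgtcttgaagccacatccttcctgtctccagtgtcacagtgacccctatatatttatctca
TATAAA began at -29 from the start in Tnf, at -32 in Il1a and at -31 in Il1b. Il18 held the reverse complement of TATAAA at -175, and no other member held the motif, which was present in 12.4% of 32851 promoter windows of this length. The NF-κB consensus was matched in Nlrp3 at -186 and in Casp4, where 2 matches overlapped, against 3.90% of all windows. No member held TTCNNNGAA in this window, which 7.02% of all windows did. A match is a run of letters and no evidence of binding, and the absence of one covers these 250 bases only.

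After filtering, 14617, 15031, 34436 and 13021 cells were kept in the order PBS, monomer, PFF + VH and PFF + AZD1480. The median depth was 7028, 6688, 2306 and 6616 UMIs per cell in the same order, so PFF + VH was the shallowest library. Classes were assigned by the UMIs of marker genes, none of which was a member. Microglia made up 12087 to 32364 cells per library, macrophages 269 to 374, neutrophils 18 to 108 and lymphocytes (T, NK and B cells) 150 to 291. Between 45 and 151 cell barcodes were shared by any 2 libraries. With 1 library per group, library and treatment cannot be told apart in any comparison between groups, and PBS and monomer entered no test. The PFF + VH and PFF + AZD1480 cells also carried 4 and 5 antibody hashtags, which were taken as separate samples. The study's methods describe biological replicates that were processed separately, as many for each PFF group as it has hashtags, but no source used here ties a hashtag to a replicate. The p-values for AZD1480 against VH measure the spread between hashtags within 2 libraries.

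The cytokine genes differed in how they were distributed over the cell classes. Levels are given as CPM, the UMIs of a gene per 1000000 UMIs of the summed class, and can be compared between classes for 1 gene. Tnf was at 660.1, 565, 933 and 1065 CPM in microglia of the PBS, monomer, PFF + VH and PFF + AZD1480 libraries. In macrophages Tnf was at 284, 276, 477 and 357 CPM, in neutrophils at 254, 139, 408 and 165 CPM and in lymphocytes at 102, 72.3, 183 and 229.9 CPM. Microglia thus had the highest Tnf level of the 4 classes in each library.

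Il1a, the alarmin of the interleukin-1 family that is active without inflammasome cleavage, was also highest in microglia. Il1a was at 612, 609.8, 719 and 891 CPM in microglia, against 65.6, 46.7, 186 and 82.9 CPM in macrophages. Neutrophil Il1a was between 23.1 and 245 CPM and lymphocyte Il1a between 38.5 and 129.7 CPM. Il1b, which encodes the IL-1β precursor, had the opposite order. Il1b was at 229, 252, 386 and 474 CPM in microglia and at 738, 1533, 1071 and 1649.8 CPM in macrophages. In neutrophils Il1b reached 8982, 9393, 2457 and 2635 CPM, the highest level of the 4 classes in each library.

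The neutrophil level of Il1b was lower in both PFF libraries than in PBS and monomer. The intervals, which cover counting error only, were 8653 to 9319 CPM in PBS and 8758 to 10062 CPM in monomer, against 2278 to 2647 CPM in PFF + VH and 2481 to 2797 CPM in PFF + AZD1480. These sums came from 66, 18, 108 and 68 cells. RNA of 8 microglial genes that were not used to set the classes stood in the neutrophils at 17.0%, 3.55%, 46.7% and 18.0% of its microglial level in the same order. With only cells that held no more than 1 marker of any other class, Il1b was at 15576 CPM in 13 PBS neutrophils and 17033 CPM in 3 neutrophils of monomer, and the PFF libraries had 6881 CPM in 8 (VH) and 411 CPM in 6 (AZD1480). The last value rests on 5 UMIs. Between hashtags of PFF + VH the neutrophil Il1b level ran from 1633 to 12625 CPM and in PFF + AZD1480 from 0 to 4415 CPM. The spread within each PFF library was thus wider than the difference between them, but it is that of small sums. These hashtags held 3 to 45 neutrophils with VH and 3 to 22 with AZD1480, and the value of 12625 CPM came from 3 cells. No test was made, because PBS and monomer were 1 library each.

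Il1rn, which encodes the secreted antagonist of the IL-1 receptor, had its highest level in neutrophils as well. Neutrophil Il1rn was at 124, 150.4, 67.4 and 70.5 CPM, from 39, 13, 19 and 29 UMIs. In microglia Il1rn was at 3.02, 5.08, 13.1 and 9.50 CPM and in macrophages at 9.61, 7.13, 1.73 and 12.5 CPM, the third value from 2 UMIs. Lymphocytes held 1, 1, 5 and 1 UMIs of Il1rn. Il12b, the p40 subunit shared by IL-12 and IL-23, was rare everywhere. Il12b was at 1.19, 5.13, 14.9 and 16.0 CPM in microglia. No neutrophil UMI of Il12b was counted in any library, which allows a level of up to 9.53, 34.7, 10.6 and 7.29 CPM. Macrophages of PBS and monomer also had none, those of PFF + VH had 3 UMIs and those of PFF + AZD1480 had 28 UMIs. Of these 28 UMIs of Il12b, 27 were in cells with more than 1 hashtag. In lymphocytes of PFF + VH, 9 of 11 UMIs of Il12b were in 16 cells without a hashtag.

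Of the inflammasome genes, Nlrp3 was low in lymphocytes while Casp1 lay between 21.9 and 75.8 CPM in all 4 classes. Nlrp3, the sensor, was at 285, 259.8, 257 and 412 CPM in microglia and at 191, 246, 279 and 377 CPM in macrophages. Neutrophil Nlrp3 was at 445, 416, 202 and 229 CPM, while lymphocytes had 12.8, 10.3, 28.7 and 73.0 CPM. Casp1 was at 33.4 to 37.7 CPM in microglia, 54.5 to 75.8 CPM in macrophages, 21.9 to 34.96 CPM in neutrophils and 33.1 to 49.7 CPM in lymphocytes. Pycard, the adaptor, was at 252, 242, 255 and 208 CPM in microglia and at 146, 141, 225 and 126 CPM in lymphocytes. Macrophages held 120.0 to 168 CPM of Pycard and neutrophils 47.7 to 163 CPM. Casp4 had its highest level in microglia of each library, at 239 to 259 CPM, with 127 to 198 CPM in macrophages, 65.6 to 203 CPM in neutrophils and 42.9 to 74.1 CPM in lymphocytes. PBS macrophages that held no more than 1 marker of any other class had 265 CPM of Casp4, from 35 UMIs, beside 248 CPM in all PBS microglia. Il18, whose precursor caspase-1 cleaves, was at 58.6, 63.2, 52.5 and 48.6 CPM in microglia and 38.0 to 66.1 CPM in macrophages. Neutrophil Il18 was at 19.4 to 46.1 CPM. Lymphocyte Il18 was at most 14.4 CPM.

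**Figure D1:**
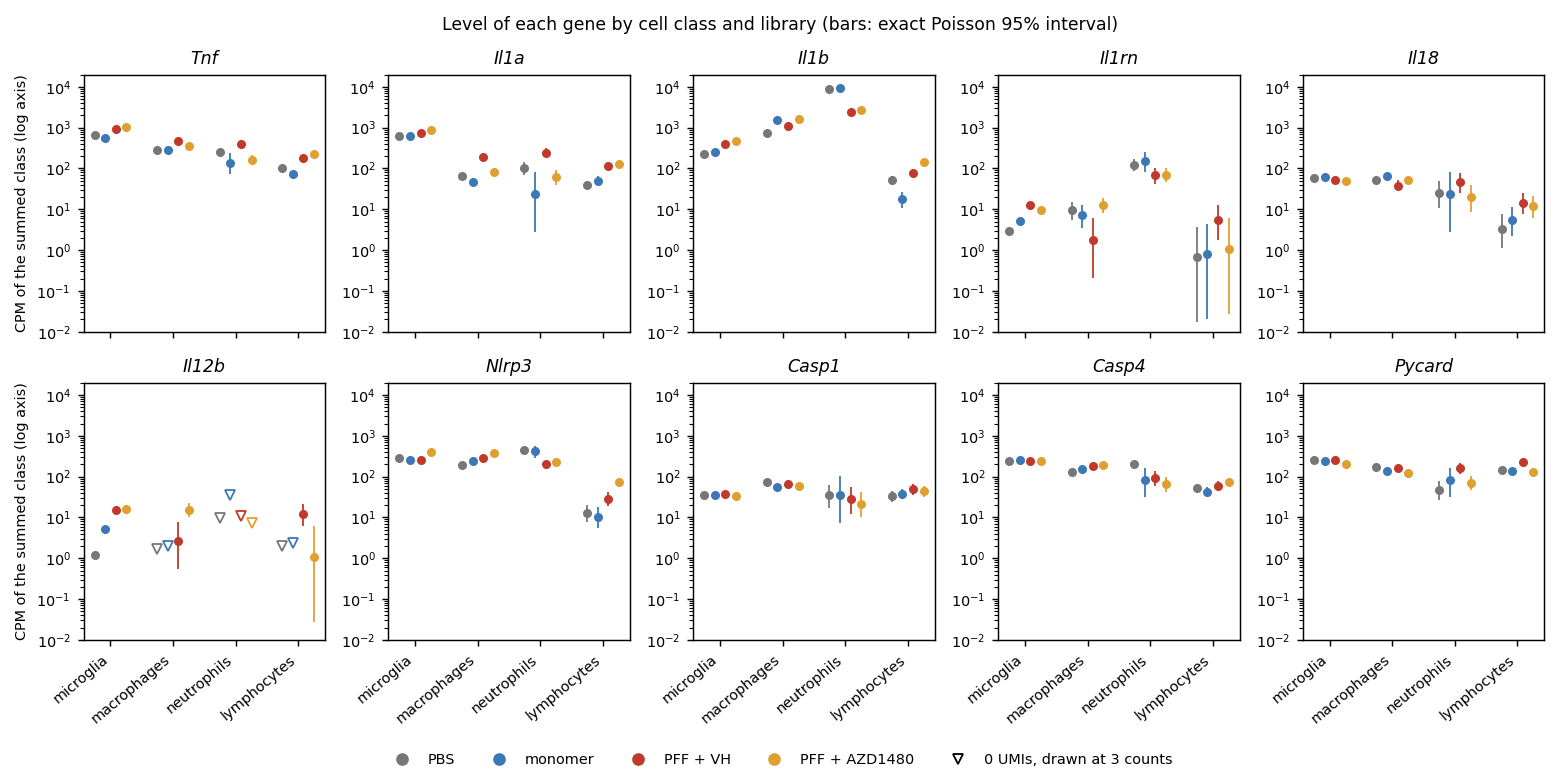
Levels of the 10 genes, 1 panel per gene, in CPM on a log axis, for microglia, macrophages, neutrophils and lymphocytes of the PBS, monomer, PFF + VH and PFF + AZD1480 libraries. Bars are exact Poisson 95% intervals (counting error only) and open triangles mark classes with 0 UMIs, drawn at 3 counts; Il1b lies highest in neutrophils (2457 to 9393 CPM) and Tnf and Il1a lie highest in microglia.

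The contrast of macrophages with microglia was tested in the 9 hashtags of the PFF libraries, with both classes of each hashtag compared within it. Of 10 members, 2 were higher in macrophages and 6 lower (edgeR quasi-likelihood test, Benjamini-Hochberg adjusted p under 0.05), where 34.0% of all 11170 genes tested passed in either direction, 15.2% higher and 18.8% lower. The median log2 difference of the members was -0.54, beside -0.08 over all genes tested. Il1b was at 1516 ± 774 CPM in macrophages and 442 ± 74.2 CPM in microglia (SD, n = 9), a log2 difference of 1.66 (SE 0.13) with an adjusted p of 2.81e-15 by edgeR. Casp1 was at 64.4 ± 14.7 against 35.5 ± 2.55 CPM (log2 difference 0.85, SE 0.17, edgeR adjusted p = 3.56e-05), and its 9 macrophage values, 39.4 to 80.4 CPM, all lay above the microglial ones of 30.9 to 38.8 CPM. The Il1b values of both classes overlapped, and groups did not overlap for 12.7% of all genes tested.

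Among the cytokines that were lower in macrophages, Il1a had the lowest adjusted p. Il1a was at 108 ± 49.0 CPM in macrophages and 829 ± 141 CPM in microglia (SD, n = 9; log2 difference -2.88, SE 0.15, edgeR adjusted p = 2.35e-22), without overlap. Tnf was at 376 ± 117 against 1042 ± 188 CPM (log2 difference -1.51, SE 0.11), also without overlap. Il12b (-2.89 on the log2 scale, SE 0.54), Il1rn (-1.57, SE 0.52), Pycard (-0.68, SE 0.12) and Casp4 (-0.40, SE 0.11) were lower too, the last with an edgeR adjusted p of 0.00371. Il18 (-0.16, SE 0.20) and Nlrp3 (-0.11, SE 0.12) did not pass.

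Some of these calls depended on how cells were assigned. The 8 microglial genes stood in macrophages at 55.4% to 57.8% of their microglial level in sum, and single genes at 15.2% to 98.3%. The microglial markers of the gate summed to 1964 CPM in macrophages and 10310 CPM in microglia over all libraries. How much of this RNA came from microglia, and its part in the values above, was not tested. When cells with UMIs of 2 or more markers of another class were left out, 41 macrophages of PFF + VH and 35 of PFF + AZD1480 remained. The fit used only those with a single hashtag, against microglia under the same limit. Il1b was then 0.71 higher in macrophages on the log2 scale, with an edgeR adjusted p of 0.0932. Casp1 (0.47), Il12b (-1.92), Pycard (-0.88) and Il1rn kept their direction without passing, the difference of Pycard being larger than before. Nlrp3 was then lower in macrophages, at a log2 difference of -1.94 with an edgeR adjusted p of 9.70e-05, while Il1a, Tnf and Casp4 kept their calls. Casp4 (-0.30) and Il1rn (-1.18) did not pass with MULTIseqDemux, which placed most labelled VH cells in 1 hashtag, at edgeR adjusted p of 0.0729 and 0.0784, nor in the PFF + AZD1480 hashtags alone (-0.30 and -1.06, at 0.127 and 0.261). In the PFF + VH hashtags alone Il18 was lower in macrophages, at a log2 difference of -0.87 with an edgeR adjusted p of 0.0184.

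The lists of other genes of these pathways were taken from textbook roles, with earlier results of these data known. Of 14 tested inflammasome sensors and effectors, 4 were higher in macrophages and 7 lower, where 15.2% of all genes tested were higher and 18.8% lower. Nlrc4, which assembles an inflammasome on bacterial flagellin, was at 50.4 ± 21.1 CPM in macrophages and 0.928 ± 0.378 CPM in microglia. P2rx7, the ATP-gated channel whose opening triggers NLRP3, was at 491 ± 209 against 121 ± 8.78 CPM, and Ninj1, which ruptures the membrane in pyroptosis, at 113 ± 43.4 against 47.8 ± 3.51 CPM. Aim2, a sensor of DNA, was lower in macrophages by 1.18 on the log2 scale (119.6 ± 44.6 against 262 ± 11.3 CPM). Of 12 genes of IL-1 and IL-18 receptors and signalling, 2 were higher (Irak3 and Il1rl1) and 4 lower, with Il1rl2 at 8.65 ± 8.08 against 56.8 ± 7.12 CPM and Irak1 at 23.7 ± 13.6 against 44.0 ± 4.11 CPM. For TNF receptors and signalling, Tnfrsf1a and Ripk1 were higher and Tnfaip3 lower, of 10 tested. Of 7 other cytokines, Ebi3 was higher and Il6 and Tgfb1 lower. The median log2 differences of these 4 lists were -0.47, 0.20, 0.51 and -0.08, beside -0.08 over all genes. Immediate early and heat shock genes, known to rise during tissue handling, were higher in macrophages in 9 of 12 cases and lower in 1, and their part in the values above was not tested.

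Lymphocytes had less of most members than microglia. Of 10 members 9 were lower and none higher, where 47.3% of 11068 genes tested passed (16.9% higher and 30.4% lower), and the median log2 difference was -3.44 (-3.20 with Il1rn at its bound), beside -0.25 over all genes. Nlrp3 was at 20.7 ± 16.0 CPM in lymphocytes and 348 ± 95.6 CPM in microglia (SD, n = 9; log2 difference -4.11, SE 0.24, edgeR adjusted p = 1.37e-26). Tnf (-2.97, SE 0.18), Il1a (-3.44, SE 0.19), Il1b (-3.43, SE 0.22), Il18 (-3.45, SE 0.43) and Casp4 (-2.22, SE 0.21) were lower on the log2 scale and did not overlap between these classes, as 21.3% of all genes did not. Il12b passed as well, but these lymphocytes held 1 UMI of it, in VH hashtag 1, where lymphocytes stood at 8.42 and microglia at 8.05 CPM. Il1rn had 0 UMIs in the 304 lymphocytes with a single hashtag, which places it at least 3.81-fold higher in microglia, against a floor of 3 counts over all 9 hashtags. Pycard was lower by 0.78 on the log2 scale (157 ± 58.9 against 231 ± 29.1 CPM, SE 0.17, edgeR adjusted p = 6.17e-05), and with MULTIseqDemux the log2 difference was -0.40 (edgeR adjusted p = 0.0718). Casp1 was at 42.4 ± 19.8 CPM in lymphocytes and 35.5 ± 2.55 CPM in microglia (log2 difference 0.03, SE 0.25, edgeR adjusted p = 0.929).

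The lymphocyte levels were set beside those of RNA from microglia. The 8 microglial genes, which lymphocytes should lack, were found in lymphocytes at 6.16%, 6.17%, 22.3% and 16.0% of their microglial level in PBS, monomer, PFF + VH and PFF + AZD1480. For Il1a the same share was 6.29%, 8.20%, 16.1% and 14.6%, and for Nlrp3 it was 4.50%, 3.97%, 11.2% and 17.7%. Both genes were higher in the PFF libraries than in PBS and monomer, as the 8 genes were, but Nlrp3 was higher in PFF + AZD1480 than in PFF + VH and the 8 genes were lower. Of the 67 Nlrp3 UMIs of PFF + AZD1480 lymphocytes, 54 were in the 57 cells with more than 1 hashtag, and lymphocytes with a single hashtag had 25.3 CPM of Nlrp3, beside 419.9 CPM in such microglia. In PFF + VH these values were 19.8 and 252 CPM, so the order of the shares turned. Il1b was at 22.4%, 6.93%, 20.3% and 30.4%, and Tnf at 15.4%, 12.8%, 19.6% and 21.6%. The shares of Tnf and Il1b exceeded the summed share of the 8 genes in PBS, monomer and PFF + AZD1480. In monomer, however, the Il1b share rested on 22 UMIs and lay within the range of the single genes, 4.99% to 8.12%. PBS lymphocytes that held no more than 1 marker of any other class had 44.7 CPM of Tnf, from 34 UMIs, beside 102 CPM over all PBS lymphocytes. In PFF + AZD1480 much of the excess lay in cells with more than 1 hashtag. Lymphocytes with a single hashtag had 44.8 CPM of Il1b there, beside 480 CPM in such microglia, and 169 CPM of Tnf, beside 1102 CPM. Over the single-hashtag cells of both PFF libraries, all 8 genes were lower in lymphocytes than in microglia by edgeR, with a median log2 difference of -3.27. What part of the lymphocyte UMIs of the members came from microglia was not tested. Casp4 was at 16.5% to 29.8%, Pycard at 57.8% to 88.3% and Casp1 at 94.6% to 134% of the microglial level, above the range of the 8 genes in each library.

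Within lymphocytes, the class sum of Il1b was not evenly spread over cell types or hashtags. Il1b was at 133 CPM in NK cells of PBS, at 7.70 CPM in T cells, and the 51 B cells held 0 UMIs, which allows up to 16.8 CPM. In PFF + AZD1480 NK cells it reached 421 CPM, from 70 UMIs. Of the 132 Il1b UMIs of PFF + AZD1480 lymphocytes, 109 were in 57 cells with more than 1 hashtag, and 23 were in the 92 cells with a single hashtag.

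**Figure D2:**
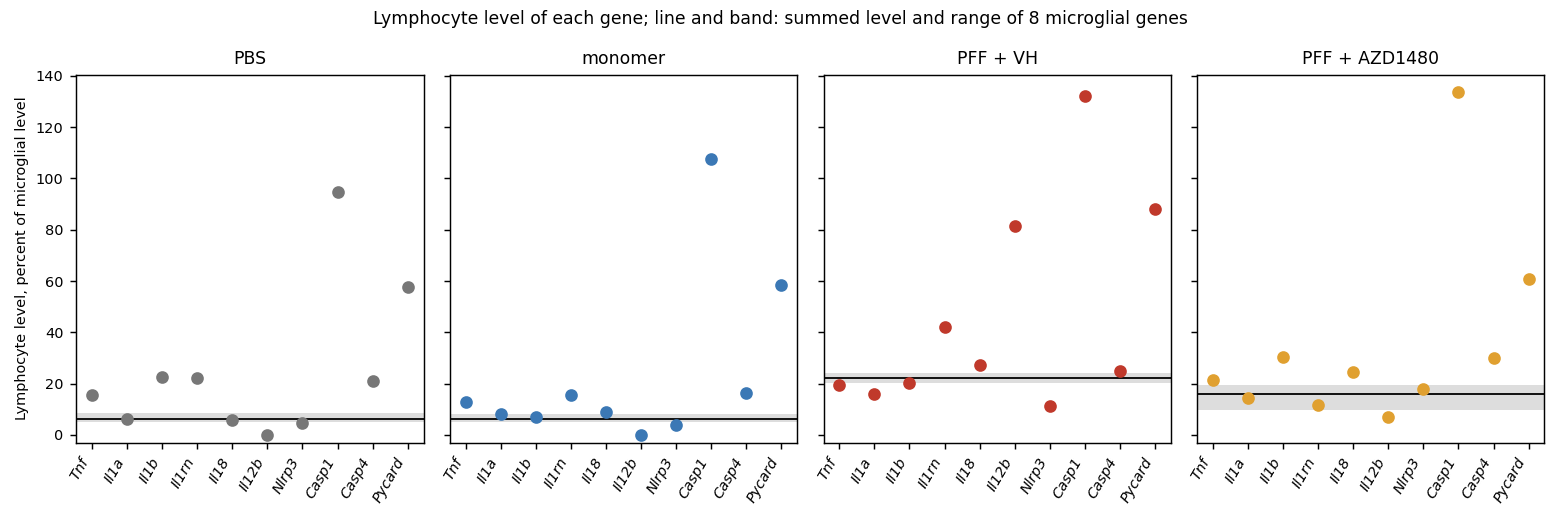
Level of each of the 10 genes in lymphocytes as a percentage of its level in microglia of the same library, on a linear axis, for the PBS, monomer, PFF + VH and PFF + AZD1480 libraries. The line and band give the summed level of 8 microglial genes and the range over them; Casp1 and Pycard lie above the band in each library.

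The list of TNF receptors and signalling moved the other way in part, with 5 of 10 tested genes higher in lymphocytes and 4 lower, where 16.9% of all genes were higher and 30.4% lower. Ltb, which encodes lymphotoxin β, was at 756 ± 232 CPM in lymphocytes and 11.2 ± 2.20 CPM in microglia, and Traf1 at 89.4 ± 37.5 against 8.46 ± 2.47 CPM. Adam17, the protease that releases TNF from the membrane, was at 39.5 ± 22.0 CPM in lymphocytes and 158 ± 8.08 CPM in microglia. Of 11 genes of IL-1 and IL-18 receptors and signalling, 3 were higher and 3 lower. Il18rap, the accessory chain of the IL-18 receptor, was at 69.9 ± 37.2 against 3.26 ± 1.34 CPM, Il1rl1 at 40.6 ± 36.0 against 6.36 ± 0.727 CPM and Il1r1 at 28.1 ± 27.2 against 5.89 ± 0.533 CPM. Inflammasome sensors and effectors were lower in 11 of 13 cases and higher in 1, and other cytokines were lower in 6 of 7. The median log2 differences were 0.33 for TNF receptors and signalling, -0.41 for the IL-1 and IL-18 list, -1.47 for the sensors and effectors and -2.29 for the other cytokines.

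The PFF libraries were set against monomer in microglia as a ratio of libraries, with no replicate check. The PFF mice were also gavaged for 4 weeks, and no dosing is given for monomer or PBS. PFF and gavage therefore cannot be told apart in these ratios. A member counted as higher where its CPM + 1 was at least 1.5-fold that of the other library, counting only genes whose mean over both libraries reached 10 CPM. Between PFF + VH and monomer 3 of 9 eligible members were higher and none lower, where 2.26% of 8369 genes were higher. These were Tnf (1.65-fold), Il1b (1.53-fold) and Il12b (2.59-fold). Il12b reached the limit of 10 CPM only through its PFF + VH level, at 14.9 against 5.13 CPM in monomer. Its place in this count was thus favoured by the limit itself. Il1a was 1.18-fold and Nlrp3 0.989-fold of monomer. Il1rn was under the limit of 10 CPM, at 13.1 against 5.08 CPM.

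In PFF + AZD1480 against the same monomer library, 4 of 9 members were higher, where 2.07% of 8351 genes were. Tnf was 1.88-fold, Il1b 1.88-fold, Il12b 2.78-fold and Nlrp3 1.58-fold, with Il1a at 1.46-fold. Il12b again reached the limit only through its PFF level, at 16.0 CPM in PFF + AZD1480. Monomer and PBS differed by less than 1.5-fold in all 8 eligible members, where 0.380% of 8412 genes passed in either direction. Il12b was under the 10 CPM limit and so not among these 8. It was at 5.13 CPM in monomer and 1.19 CPM in PBS, which is 2.80-fold by the same ratio. PFF + VH microglia had other values apart from the rest: ribosomal protein genes summed to 81489 CPM against 61763 to 65606 CPM in the other libraries, and Gm42418, a locus that collects ribosomal RNA reads, stood at 12223 against 6422 to 8550 CPM. Their part in the ratios with PFF + VH was not tested. The immediate early and heat shock genes summed to 18562 CPM in PFF + VH and 20122 to 20437 CPM in the other libraries.

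AZD1480 against VH was tested in microglia over 5 and 4 hashtags. Of the 10 members, all of which passed the filter on low counts, Nlrp3 was higher and Pycard and Casp1 were lower with AZD1480, and 7 did not pass. Over all 13698 genes tested 27.3% passed (12.4% higher and 14.9% lower), so that 3 of 10 is close to the share of all genes. The median log2 difference of the members was 0.11, beside 0.00 over all genes (-0.0012). In 4 of 10 members (Nlrp3, Pycard, Casp1 and Il1a) the hashtags of both groups did not overlap, where 24.3% of all genes did not.

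Nlrp3 stood at 220.2, 293, 287 and 216 CPM in the PFF + VH hashtags 1 to 4 and at 434, 456, 429, 367 and 430.2 CPM in the PFF + AZD1480 hashtags 1 to 5. Every AZD1480 value lay above every VH value. The means were 254 ± 41.4 and 423 ± 33.3 CPM (SD, n = 4 and 5), a log2 difference of 0.68 (SE 0.11, edgeR adjusted p = 0.000961). After each cell was thinned to 1000 UMIs, 14.98% to 19.99% of microglia held Nlrp3 in the VH hashtags and 20.7% to 25.2% in the AZD1480 hashtags, which is the same order as the CPM.

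Pycard stood at 273, 262, 242 and 262 CPM in the VH hashtags and at 207, 205, 213, 213 and 199 CPM in the AZD1480 hashtags. All AZD1480 values were below the lowest VH value. The means were 259.9 ± 12.8 and 207 ± 6.20 CPM, and the log2 difference was -0.38 (SE 0.04, edgeR adjusted p = 0.000135). Casp1 stood at 37.2, 38.3, 38.8 and 36.9 CPM with VH and at 34.3, 33.4, 35.7, 30.9 and 34.3 CPM with AZD1480, again without overlap. Its means were 37.8 ± 0.871 and 33.7 ± 1.78 CPM (log2 difference -0.22, SE 0.06, edgeR adjusted p = 0.0144), and with hashtags assigned by MULTIseqDemux, which called 82.9% of PFF + VH cells negative, put 5374 of the 5817 labelled ones in 1 hashtag and left another empty, the log2 difference was -0.28 with an edgeR adjusted p of 0.0913.

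Il1a stood at 591, 802, 797 and 678 CPM with VH and at 902, 1081, 899, 817 and 896 CPM with AZD1480. These values did not overlap, but the log2 difference of 0.30 (SE 0.11) had an edgeR adjusted p of 0.0556. Il1a passed in 7 of the alternatives, among them DESeq2 (adjusted p = 0.0223) and the fit without PFF + VH replicate 2 (edgeR adjusted p = 0.0327). Il1b was at 394 ± 63.7 CPM with VH and 481 ± 61.2 CPM with AZD1480 (log2 difference 0.23, SE 0.13, edgeR adjusted p = 0.191). With the hashtag number as a replicate block, Il1b passed (log2 difference 0.29, edgeR adjusted p = 0.0356). Tnf was at 961 ± 133 and 1106 ± 214 CPM (0.15 on the log2 scale, SE 0.14, edgeR adjusted p = 0.472), with values of 828 to 1121 CPM and 874 to 1375 CPM that overlapped.

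Technical measures differed between the same hashtags. Ribosomal protein genes summed to 79628 to 88935 CPM in microglia of the VH hashtags and 59347 to 66501 CPM in those of AZD1480, and Gm42418 stood at 11053 to 11963 and 8284 to 8607 CPM. Leaving Gm42418 out changed the call of no member, and the part of the ribosomal genes in the values of Nlrp3, Pycard and Casp1 was not tested.

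The remaining 4 members did not pass. Il1rn was at 11.9 ± 2.24 CPM with VH and 8.88 ± 2.94 CPM with AZD1480 (log2 difference -0.43, SE 0.20, edgeR adjusted p = 0.124). AZD1480 hashtag 4, at 14.0 CPM, lay apart from the other 4 at 6.61 to 8.74 CPM, and without that hashtag the log2 difference of Il1rn was -0.67 with an edgeR adjusted p of 0.00671. Il18 was at 52.4 ± 3.22 and 49.2 ± 5.27 CPM (-0.15 on the log2 scale, SE 0.07, edgeR adjusted p = 0.121; 0.0468 without AZD1480 hashtag 5). Il12b ran from 8.05 to 23.3 CPM with VH and from 9.13 to 23.1 CPM with AZD1480 (log2 difference 0.26, SE 0.30). Casp4 was at 232 ± 39.0 and 256 ± 25.3 CPM (0.08, SE 0.11).

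**Figure D3:**
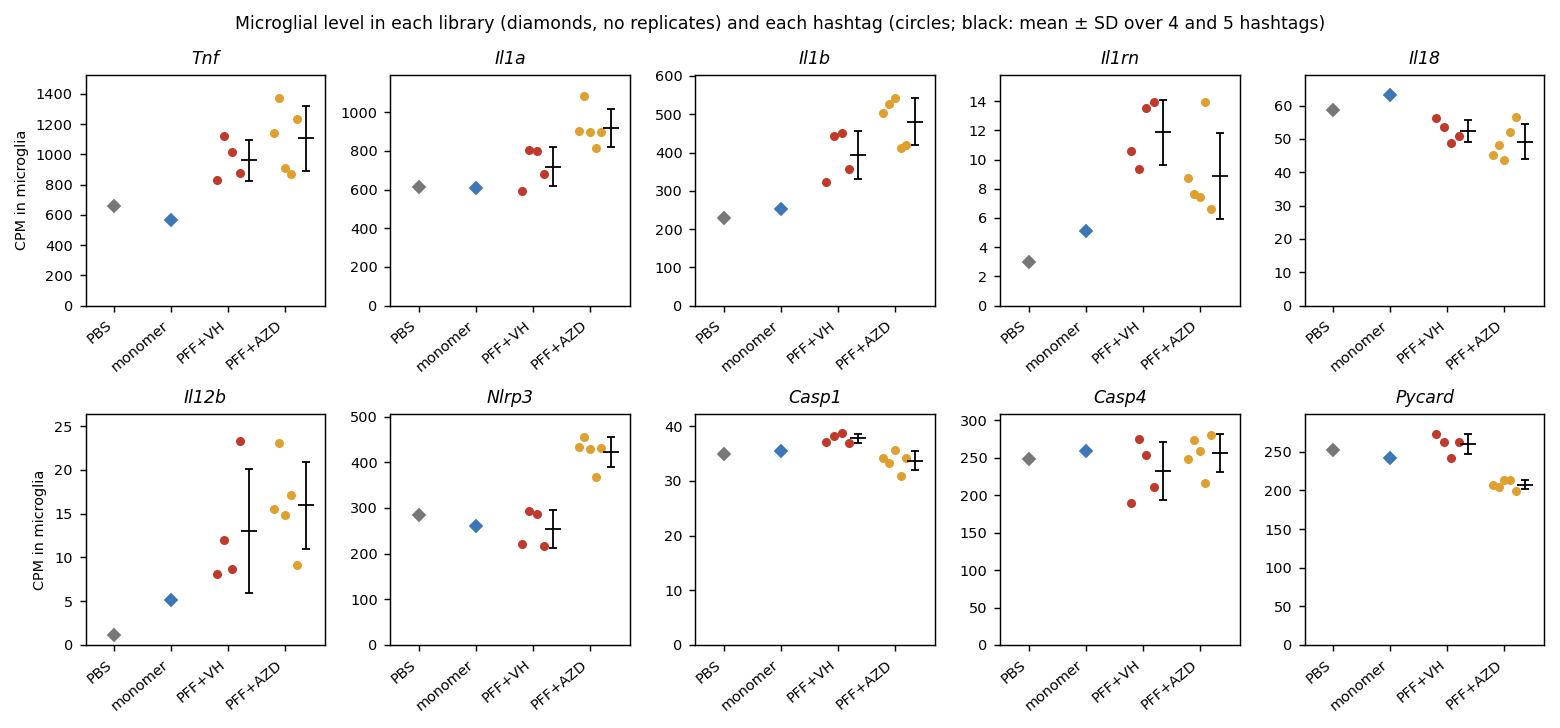
Microglial levels of the 10 genes in CPM, 1 panel per gene, with diamonds for the PBS and monomer libraries and circles for the 4 PFF + VH and 5 PFF + AZD1480 hashtags; black marks are the mean ± SD of the hashtags. Nlrp3 (216 to 293 against 367 to 456 CPM) and Pycard (242 to 273 against 199 to 213 CPM) show no overlap between VH and AZD1480.

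Of 14 other inflammasome sensors and effectors tested in microglia, 2 were higher with AZD1480 and none lower, where 12.4% of all genes tested were higher and 14.9% lower. Txnip, whose product binds NLRP3, was at 405 ± 26.3 against 309.6 ± 11.3 CPM, and Nek7, the kinase that NLRP3 needs to assemble, at 324 ± 14.0 against 271 ± 18.1 CPM. Of 15 genes of IL-1 and IL-18 receptors and signalling, 3 were higher and 2 lower. Irak2, a kinase downstream of the IL-1 and Toll-like receptors, was at 363 ± 17.8 against 259 ± 10.0 CPM (log2 difference 0.43, SE 0.06, edgeR adjusted p = 0.000253), and Irak3, which restrains that signal, at 14.7 ± 2.25 against 9.11 ± 1.60 CPM. Il18r1 and Il18bp, the secreted binder of IL-18, were lower, at 0.548 ± 0.214 against 1.03 ± 0.284 CPM and 1.76 ± 0.432 against 2.59 ± 0.554 CPM.

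For TNF receptors and signalling, 2 of 11 genes tested were higher and 2 lower, beside the same 12.4% and 14.9% of all genes. Tnfaip3, which encodes the NF-κB inhibitor A20, was at 747 ± 53.0 CPM with AZD1480 and 467 ± 76.9 CPM with VH (log2 difference 0.62, SE 0.11, edgeR adjusted p = 0.00145). Tnfrsf1b, the second TNF receptor, was at 106 ± 4.21 against 80.4 ± 3.85 CPM. Traf1 (6.61 ± 1.34 against 10.8 ± 1.06 CPM) and Ltb (9.74 ± 1.44 against 12.9 ± 1.63 CPM) were lower. Of 10 other cytokines, Il10 (8.93 ± 2.69 against 4.42 ± 1.52 CPM) and Il15 (54.7 ± 2.20 against 43.6 ± 3.77 CPM) were higher, and Il6 (10.9 ± 1.24 against 16.1 ± 2.07 CPM) and Il23a (0.947 ± 0.234 against 1.64 ± 0.330 CPM) were lower. The 4 lists had median log2 differences of -0.04 (sensors and effectors), -0.06 (IL-1 and IL-18), -0.06 (TNF) and -0.25 (other cytokines). None of the 12 immediate early and heat shock genes passed, and their summed level was 16082 to 21955 CPM in the VH hashtags and 19969 to 21778 CPM in the AZD1480 hashtags.

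In macrophages 7 of the 10 members could be tested for AZD1480 against VH and none passed by edgeR or DESeq2, where 0.440% of 4088 genes did. On simulated counts of this comparison, the edgeR test called 44.5% of genes changed 2-fold, against 81% in microglia. Il1b stood at 528, 1383, 757 and 1440.4 CPM in the VH hashtags and at 2132, 1708, 1785, 874 and 3036 CPM in the AZD1480 hashtags, which overlapped. The means of Il1b were 1027 ± 454 and 1907 ± 782 CPM, with a log2 difference of 0.86 (SE 0.29) and an edgeR adjusted p of 0.234. This became 0.000129 without the filter on low counts, where 15342 genes were tested. Nlrp3 was at 235 ± 118 and 395 ± 94.96 CPM (log2 difference 0.67, SE 0.27, edgeR adjusted p = 0.330) and Il1a at 142 ± 48.2 and 80.5 ± 30.4 CPM (-0.74, SE 0.29, edgeR adjusted p = 0.293). For Pycard (-0.42, SE 0.23), Casp4 (0.26, SE 0.24), Tnf (0.12, SE 0.26) and Casp1 (-0.12, SE 0.28) the log2 differences were smaller. At an unadjusted p under 0.05 edgeR called 454 of the 4088 genes tested in this class, Il1b, Nlrp3 and Il1a among them. The median log2 difference of the 7 members was 0.12, beside 0.00 over all genes (-0.0027). None of the 10, 3, 5 and 4 tested genes of the lists of sensors and effectors, IL-1 and IL-18, TNF and other cytokines passed. The VH and AZD1480 hashtags overlapped for all 10 members, where 4.09% of genes tested did not overlap. Macrophage immediate early and heat shock genes summed to 19636 to 24685 CPM in the VH hashtags and 22872 to 33207 CPM in the AZD1480 hashtags, with Fosb passing the test, and their part in the Il1b and Nlrp3 values was not tested.

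In lymphocytes only Tnf, Il1a and Pycard could be tested, from 4 to 57 cells per hashtag, and none passed by edgeR or DESeq2, where 0.814% of 2335 genes did. Of genes changed 2-fold in simulated counts of this comparison, 49.5% were called. Pycard was at 199 ± 52.0 CPM with VH and 123 ± 41.5 CPM with AZD1480 (log2 difference -0.75, SE 0.29, edgeR adjusted p = 0.287). Tnf was at 147 ± 80.2 and 169 ± 61.5 CPM (0.23, SE 0.35) and Il1a at 101 ± 26.1 and 75.1 ± 12.4 CPM (-0.51, SE 0.30). By edgeR 302 of the 2335 genes tested had an unadjusted p under 0.05, Pycard among them. The 3 members had a median log2 difference of -0.51, beside 0.00 over all genes (-0.0022), and none of the 4, 2, 4 and 1 tested genes of the same 4 lists passed. No member was without overlap between VH and AZD1480 in lymphocytes, against 4.24% of the genes tested.

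**Figure D4:**
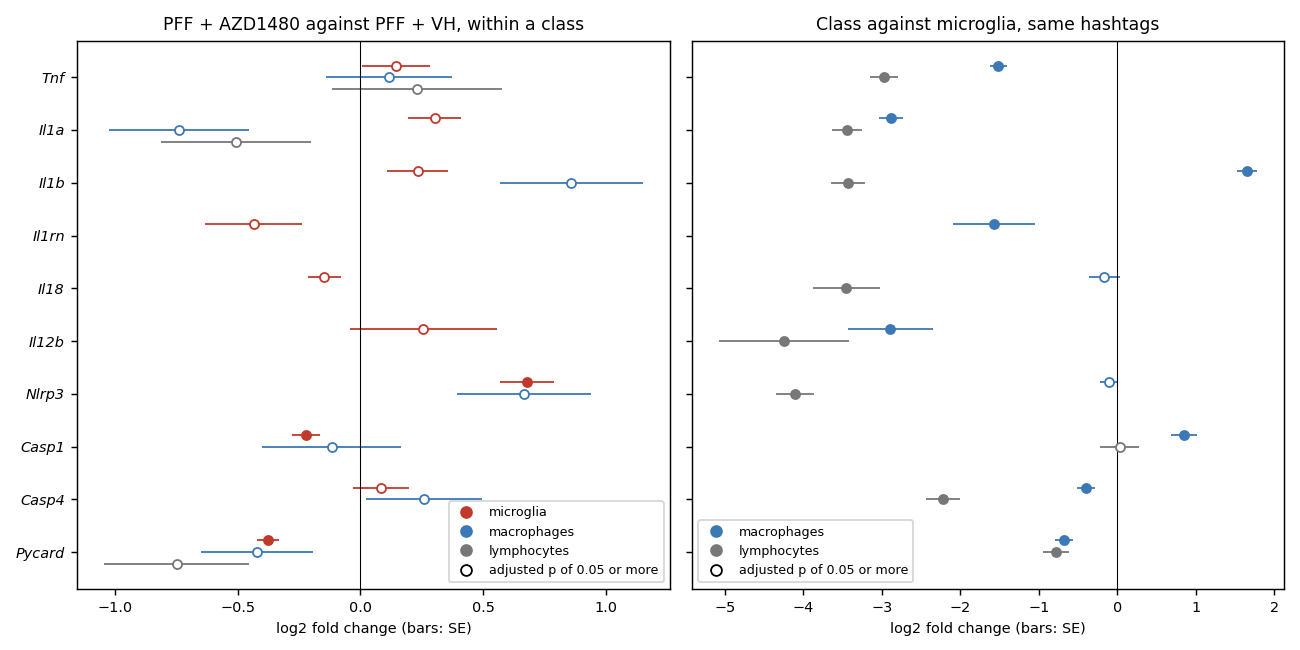
Log2 differences of the 10 genes with SE bars by the edgeR quasi-likelihood test: left, PFF + AZD1480 minus PFF + VH in microglia, macrophages and lymphocytes; right, macrophages and lymphocytes minus microglia. Open marks have an adjusted p of 0.05 or more and lymphocyte Il1rn, with 0 UMIs, is not drawn; Nlrp3 (0.68), Pycard (-0.38) and Casp1 (-0.22) pass for AZD1480 in microglia.

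Microglia did not share the cytokine RNA evenly, and the 4 primed genes were found in the same cells more often than in others. Each microglial cell was thinned to 1000 UMIs, which left out cells below that depth, so that libraries of unequal depth could be compared. Tnf was then detected in 27.7% of 13080 PBS microglia, 26.2% of 13315 in monomer, 43.6% of 27965 in PFF + VH, and 39.99% of 11772 in PFF + AZD1480, and before thinning in 56.9%, 53.6%, 61.7% and 71.6%. Il1b was detected in 9.22%, 10.1%, 20.4% and 18.9% of thinned microglia and Il1a in 30.04%, 31.0%, 41.0% and 39.6%. Since the CPM of Tnf, Il1a and Il1b were higher in PFF + AZD1480 than in PFF + VH, no order is read between these 2 libraries from the shares. Nlrp3 was detected in 18.9%, 17.3%, 18.4% and 23.5%.

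Among microglia with a UMI of Il1b, Tnf was detected in 50.7%, 45.9%, 56.4% and 58.5% in the 4 libraries, against 25.3%, 24.0%, 40.3% and 35.7% of those without. Nlrp3 was detected in 33.7%, 31.5%, 25.4% and 40% of microglia with Il1b and in 17.4%, 15.7%, 16.5% and 19.7% of those without. Casp4 behaved alike, at 22.8% to 29.6% with Il1b and 15.8% to 16.9% without. The differences were small for the partners of NLRP3. Pycard was detected in 18.6%, 19.1%, 21.1% and 15.05% of cells with Il1b and in 20.8%, 19.6%, 22.2% and 18.7% of those without. Casp1 was detected in 4.56%, 3.35%, 3.96% and 3.42% with Il1b and in 3.41%, 3.22%, 3.73% and 3.14% without. These shares are a description, since cells of 1 library are not replicates.

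Over Il1a, Il1b, Tnf and Nlrp3 together, 47.3% of PBS and 46.9% of monomer microglia held none of the 4 genes, against 29.0% in PFF + VH and 34.4% in PFF + AZD1480. All 4 were held by 1.44%, 1.10%, 2.13% and 4.13%. Variance also set the members apart. The variance of the thinned count over its mean (Fano factor, which is 1 for random sampling) was 2.54 to 3.72 for Il1b and 2.38 to 3.11 for Tnf, and 1.01 to 1.12 for Casp1, Il18 and Pycard. The 1% of microglia with the most Il1b held 31.7% and 30.2% of its thinned UMIs in PBS and monomer and 17.0% and 18.7% in the PFF libraries. For Casp1, which is far lower in level, the same share was 28.3% to 32.7%, so this measure alone does not set Il1b apart.

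Il12b was concentrated in very few microglia in each of the 4 libraries. A UMI of Il12b was found in 7, 23, 186 and 51 thinned cells, which is 0.0535%, 0.173%, 0.665% and 0.433%. The highest count in 1 thinned cell was 5, 9, 13 and 14 UMIs, and the Fano factor of Il12b was 3.23 to 6.48. Before thinning, 9, 19, 115 and 52 microglia had 3 or more UMIs of Il12b, and these held 80.9%, 90.7%, 78.6% and 94.9% of all Il12b UMIs of microglia. They were found in each of the 9 hashtags, as 11, 15, 12 and 31 cells with VH and 9, 14, 8, 10 and 5 with AZD1480.

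Microglia with 3 or more Il12b UMIs also had more Tnf and Il1b than those with none. Their Tnf was at 1921, 2806, 2893 and 3899 CPM, against 656, 558, 912 and 1043 CPM in microglia without Il12b, a ratio of 2.93, 5.03, 3.17 and 3.74. Il1b was at 622, 928, 849 and 1542 CPM against 228, 248, 381 and 465 CPM. Il1a was higher by a ratio of 1.40 to 2.30. Pycard had ratios of 0.548 to 1.12. In the 3 libraries where these cells held more than 3 UMIs of the gene, Casp1 had ratios of 0.645 to 0.834, Il18 of 0.392 to 0.935 and Il1rn of 8.07 in monomer (6 UMIs), 1.18 in PFF + VH and 23.2 in PFF + AZD1480 (194 against 8.35 CPM, from 91 UMIs). These cells were deeper than the others, with median UMIs of 8971, 8152, 4334 and 8563.5 against 7229, 6833, 2379.5 and 6768. Their microglial markers summed to 9659, 6913, 7097 and 5182 CPM against 10800, 11437, 9583 and 9432 CPM. Dendritic cell markers summed to 41.5, 5.91, 21.3 and 31.9 CPM in these cells, from 3, 1, 14 and 15 UMIs, against 9.98, 11.4, 15.9 and 15.1 CPM in the others. In PFF + AZD1480 alone the level in the others lay below the interval for counting error, 17.9 to 52.7 CPM. In PFF + VH the T cell markers summed to 120.3 against 24.7 CPM, the NK cell markers to 54.8 against 18.6 CPM and the markers of cells that are not immune to 123 against 50.1 CPM. In that library 26 of the 115 cells carried more than 1 hashtag. The part of other cells in these values was not tested.

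**Figure D5:**
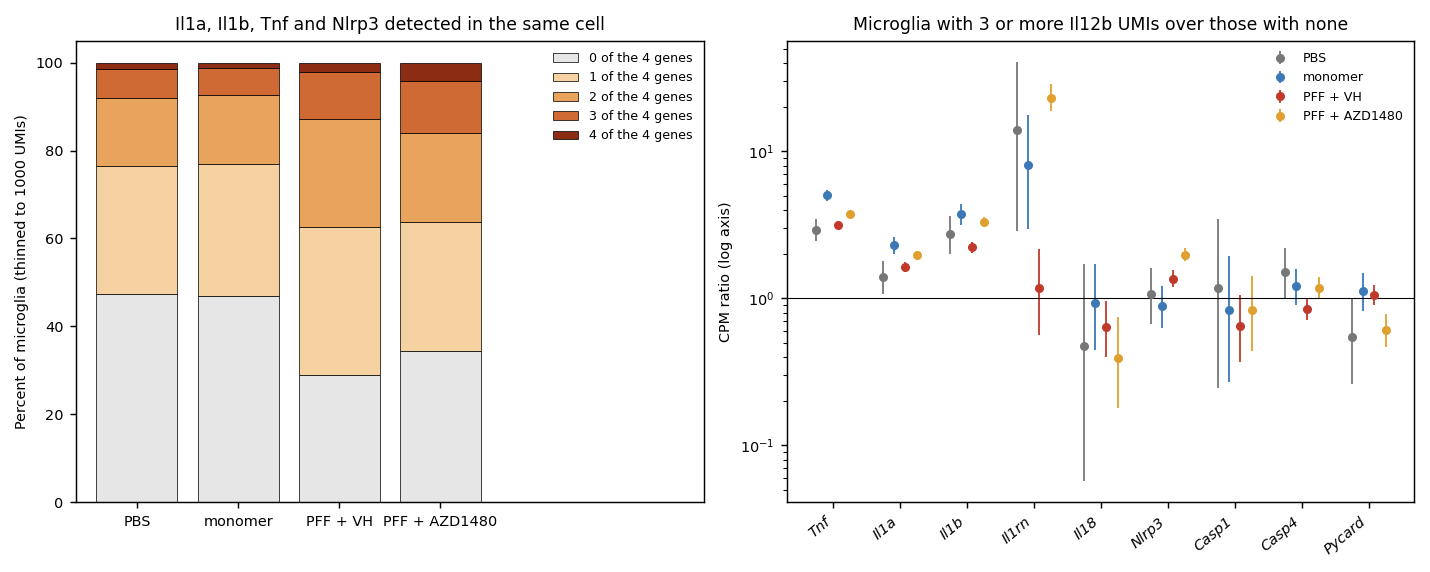
Left, shares of microglia, thinned to 1000 UMIs, that held 0 to 4 of the genes Il1a, Il1b, Tnf and Nlrp3 in each library; right, the CPM of each other member in microglia with 3 or more Il12b UMIs divided by its CPM in those with none, on a log axis. The share with none of the 4 genes is 47.3% in PBS and 29.0% in PFF + VH, and the Tnf ratio lies between 2.93 and 5.03.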

How the data were processed

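The deposited files hold UMI counts per gene and cell of 10x 3′ libraries, 1 matrix for each of 4 libraries, with hashtag antibody counts in both PFF matrices. Per the file headers the authors counted with Cell Ranger 7.0.1 against mm10, and the study's methods name another release. Whether intronic reads were counted is not given in the sources used here. The members and gene lists were chosen with earlier results of these data known.

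Cells with 500 to 15000 UMIs, 250 to 5000 genes and at most 10% mitochondrial UMIs were kept. A cell was given to the class with the most marker UMIs (at least 2 markers and 3 marker UMIs, limits set after the marker counts were seen), and the rest were given to no class. No doublet caller was run, and cells with more than 1 hashtag were left out of hashtag sums. Hashtags were called by HTODemux of Seurat 5.3.0 (values centred across cells, quantile 0.99), which gave a single hashtag to 52.0% of cells in PFF + VH and to 81.0% in PFF + AZD1480. In PFF + VH the median depth was 1346 UMIs for unlabelled and 2916 UMIs for single-hashtag cells. The antibody rows stayed out of library sizes.

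Counts were summed per hashtag and class and compared by edgeR 4.0.16 (quasi-likelihood test, R 4.3.3, TMM, filterByExpr, Benjamini-Hochberg adjustment over all genes tested, threshold 0.05), with the hashtag sample as a block between classes. Hashtags were assumed to be the replicates of the study's methods, and same-numbered hashtags were not paired. The fit was tested on simulated data, where it called 44.5% (macrophages) to 81% (microglia) of 2-fold changes between AZD1480 and VH, and 54.5% and 46% between macrophages or lymphocytes and microglia. Library levels carry exact Poisson and shares exact binomial (Clopper-Pearson) 95% intervals, which cover counting error only, and a count of 0 was read against a floor of 3 counts. Cells were thinned to 1000 UMIs for shares. All 10 members and up to 4 called genes of each pathway list with the largest log2 difference were named. Alternatives were RLE scaling, DESeq2 1.42.0, leaving low counts unfiltered, other hashtag calls, a stricter class gate, deeper cells, other thinning, Gm42418 left out, each PFF library alone, a replicate block and each hashtag left out. Gene positions are from GENCODE vM21. One gene among those most like Casp4 is not reported here.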

Additional observations from a re-analysis of the deposited data

Results flagged for a closer look

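In PFF + AZD1480 microglia the Il1rn level of hashtag 4, at 14.0 CPM, stood apart from the other 4 hashtags, which lay at 6.61 to 8.74 CPM (Dixon ratio 0.711 against a critical value of 0.71). All 5 values rest on 645 UMIs, and chance flags about 1 in 20 groups.

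Cells given to no class, which the comparisons did not use, held more of some members in the PFF libraries than in PBS and monomer. Tnf in these cells was at 1021 CPM with VH and 663 CPM with AZD1480 in the PFF libraries, against 359 CPM in PBS and 379.998 CPM in monomer. Il1b was at 727 CPM with VH and 819 CPM with AZD1480, against 369.7 and 544 CPM. Il1a was at 703 CPM in PFF + VH, against 557 and 509 CPM. Il1rn was at 51.3 CPM in PFF + VH, from 62 UMIs, against 10.9 and 7.07 CPM, and Pycard at 179.5 CPM, against 82.6 and 70.7 CPM. Each of these is 1 library with no replicate check.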

How the results depend on the processing

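Over all alternatives, 680 of the log2 differences of members kept their side of the threshold, 13 gained and 11 lost a call. None that passed in either fit turned, and those that passed in neither were not checked for direction. Of the class levels, 131 moved outside the interval for counting error and 269 did not. With the strict gate 99 moved, and levels with at least 30 UMIs stood at 0.438 to 2.80 times their main value. Of the shares of microglia with a UMI, 78 moved and 2 did not with other thinning or none. For AZD1480 against VH in microglia, 3743 genes were called, 2967 to 3433 with 1 hashtag left out and 1174 with MULTIseqDemux, which put 5374 of 5817 labelled PFF + VH cells in 1 hashtag and left another empty. In macrophages 18 genes were called, 9 to 31 with 1 hashtag left out, 8 with MULTIseqDemux, 39 with hashtag values centred within cells, 33 with DESeq2, 105 without the filter on low counts and 0 with the strict gate (246 genes tested). In lymphocytes 19 were called, 7 to 49 with 1 hashtag left out, 31 with MULTIseqDemux, 29 with DESeq2, 140 without the filter and 0 with the strict gate (312 genes tested). Macrophages against microglia gave 3796 calls, 3355 to 3762 with 1 hashtag left out, 2464 in PFF + VH alone and 2255 with the strict gate. Lymphocytes against microglia gave 5238 calls, 4859 to 5286 with 1 left out and 2632 with MULTIseqDemux. The cause of these shifts was not tested.

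Deviations of same-numbered hashtags had correlations of -0.118 to 0.0872, which can neither establish nor exclude that the numbers pair samples. The same number was the best match for macrophage hashtags 2 and 4 and lymphocyte hashtag 1, and for no microglial hashtag. With the hashtag number as a replicate block, 3213 genes were called in microglia, 16 in macrophages and 10 in lymphocytes, and Il1a (adjusted p = 0.0211) and Il1b (adjusted p = 0.0356) passed by edgeR in microglia.

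Neutrophil and lymphocyte levels of rare members rest on few UMIs: of the 11 Il12b UMIs of PFF + VH lymphocytes 9 were in the 16 cells without a hashtag, and its 5 Il1rn UMIs were in cells with more than 1. Il1a of PFF + AZD1480 lymphocytes was at 129.7 CPM over all cells and 72.1 CPM in cells with a single hashtag, a setting chosen after seeing the data.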

Other observations

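Dendritic cells, too few for a comparison, held Il1b at 1166, 2609, 3024 and 4265 CPM in PBS, monomer, PFF + VH and PFF + AZD1480, from 149, 352, 96 and 488 UMIs in 14, 18, 6 and 12 cells. The intervals for counting error were 987 to 1369, 2343 to 2896, 2449 to 3692 and 3895 to 4661 CPM. Il12b had UMIs in dendritic cells of PFF + AZD1480 alone, at 34.96 CPM, and its 4 UMIs were in the 3 cells with more than 1 hashtag. Of the Il1b UMIs, 40 of 96 in PFF + VH were in 1 such cell and 193 of 488 in PFF + AZD1480 in those 3 cells.

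Across 20 sums of class and library, the genes most like Il1b were Ptgs2 (r = 0.96), which encodes the inducible cyclooxygenase, and Trib1 (r = 0.94). Those most like Tnf were Camk1 (0.91) and Siglech (0.90), the second a microglial marker used to set the classes, and those most like Il1a were Csmd3 and Chst8 (both 0.96). Nlrp3 was closest to Sdcbp (0.92) and Gab2 (0.91), Casp4 to Jmjd1c (0.90) and Pycard to Ipo7 (0.91) and Ythdf2 (0.89). Il1rn was closest to 6430548M08Rik (0.93) and Arg2 (0.90), Il18 to Lyl1 (0.93) and Tfe3 (0.92), Casp1 to Phax (0.85) and Glmp (0.81) and Il12b to Tpcn1 (0.68) and Med7 (0.66). These are Pearson correlations over 8711 genes, given as a description, since the sums share libraries and depth.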
